A study of Homo sapiens with 6 samples.

Results

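EZH2, CTNNB1, TFAP2A, TFAP2C, FGFR1 and GALNT7 are 6 genes that other work names as targets of miR-214, and their mRNA levels were followed here in cells given that miRNA. Their probes were found by taking every probe whose listed transcript is a RefSeq transcript of 1 of these genes. The 6 genes have 8 probes among the 50599 on the array, which carries probes for 21743 named genes in all. The cells were MDA-MB-231, a human breast cancer line with mesenchymal features. They were transfected with the hsa-miR-214-3p precursor, the hsa-miR-205-5p precursor or a scrambled control, each at 30 nM, and RNA was collected 72 h later. Each group has 2 arrays, all from this 1 line, and the scrambled control was a precursor too, so every group had been transfected. The labels number the replicates but do not say whether they came from separate cultures, so p-values measure only the spread between these samples, which may be technical.

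A miRNA guides the silencing complex to mRNAs that pair with its seed, bases 2 to 8 of the mature strand, usually in the 3′ untranslated region. The outcome is loss of the mRNA, less translation of it, or both, and an array reads only the mRNA. The 2 miRNAs transfected here have different seeds, which is why hsa-miR-205-5p serves as the negative comparison for genes reported as miR-214 targets. Both mature sequences are shown, with the other human miRNAs that share the seed of hsa-miR-214-3p, so that the difference between the 2 precursors can be seen. Capitals mark the seed, and sequences and positions are those of RefSeq on GRCh38.p14.
hsa-miR-214-3p: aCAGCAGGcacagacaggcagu
hsa-miR-3619-5p: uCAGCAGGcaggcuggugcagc
hsa-miR-761: gCAGCAGGgugaaacugacaca
hsa-miR-205-5p: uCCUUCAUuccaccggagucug
hsa-miR-214-3p lies at chr1:172138816-172138837 on the minus strand, and hsa-miR-205-5p at chr1:209432166-209432187 on the plus strand. Among 2370 mature human miRNA names, 3 had the hsa-miR-214-3p seed and 1 had the hsa-miR-205-5p seed. A target site for the first seed would read CCUGCUG, and one for the second would read AUGAAGG. The 3′ untranslated regions of the 6 genes were not searched here. The array has 0 probes for either miRNA gene, so the transfected miRNAs themselves were not measured.

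Well above background on an array were 35.4% to 42.2% of its 58717 spots other than controls, with 0 spots saturated. The values below are normalized log2 signals, in which 0 is the 75th percentile of the array. To be tested, a probe had to clear the background on the 2 arrays of some group, as 18464 probes did. Of these, 83.3% have a gene symbol, and they stand for 11974 genes. All 8 mesenchymal markers looked up, VIM and AXL among them, were well above background on all 6 arrays, and so were 7 of the 10 luminal and epithelial markers (ERBB2, GATA3, CDH1, EPCAM, KRT8, KRT18 and KRT19), while ESR1, PGR and FOXA1 were not on any. Of 10 stromal, immune and endothelial markers, 7 were above background on none, CD14 was on all 6, PECAM1 on 3 and PTPRC on 2. Both hsa-miR-214-3p arrays lay in row 2 of the slide and the other 4 in row 1, so that row and group cannot be told apart. The control arrays lay in columns 1 and 2, and the arrays of each of the other groups in columns 3 and 4. In both comparisons with the control, column and group therefore cannot be told apart either.

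With hsa-miR-214-3p, GALNT7 was the member whose mRNA fell, and the other tested members were not called. Of the 8 probes, 6 passed the filter, standing for 4 of the 6 genes. A probe was called at a Benjamini-Hochberg adjusted p under 0.05 in limma and a change of at least 2-fold. Against the scrambled control, 1 of the 6 tested probes was called lower and 0 were called higher with hsa-miR-214-3p, where 1.68% of all tested probes were lower and 0.991% were higher. At an unadjusted p under 0.05, 3 of the 6 probes passed, GALNT7 below the control and 1 probe each of CTNNB1 and FGFR1 above it, where 22.6% of all tested probes passed. The methods' t-test with the same fold limit and no adjustment also gave 1 lower and 0 higher. The median log2 fold change of the 6 probes was 0.22, against -0.01 over all tested probes, and 5 of the 6 lay above 0. With hsa-miR-205-5p 5 of the 6 lay above 0 as well, with a median of 0.36 against 0.05. There, 0 of the 6 probes were called in either direction, where 8.05% of all tested probes were lower and 4.14% were higher. In that comparison 3 probes had an unadjusted p under 0.05, and 2 of them an adjusted p under 0.05, all above the control, where 37.2% and 19.4% of all tested probes passed these limits. Between the precursors, 1 probe, that of GALNT7, was lower with hsa-miR-214-3p than with hsa-miR-205-5p and 0 were higher, where 8.37% of all tested probes were lower and 11.6% were higher. All comparisons against the control share its 2 arrays.

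**Figure D1:**
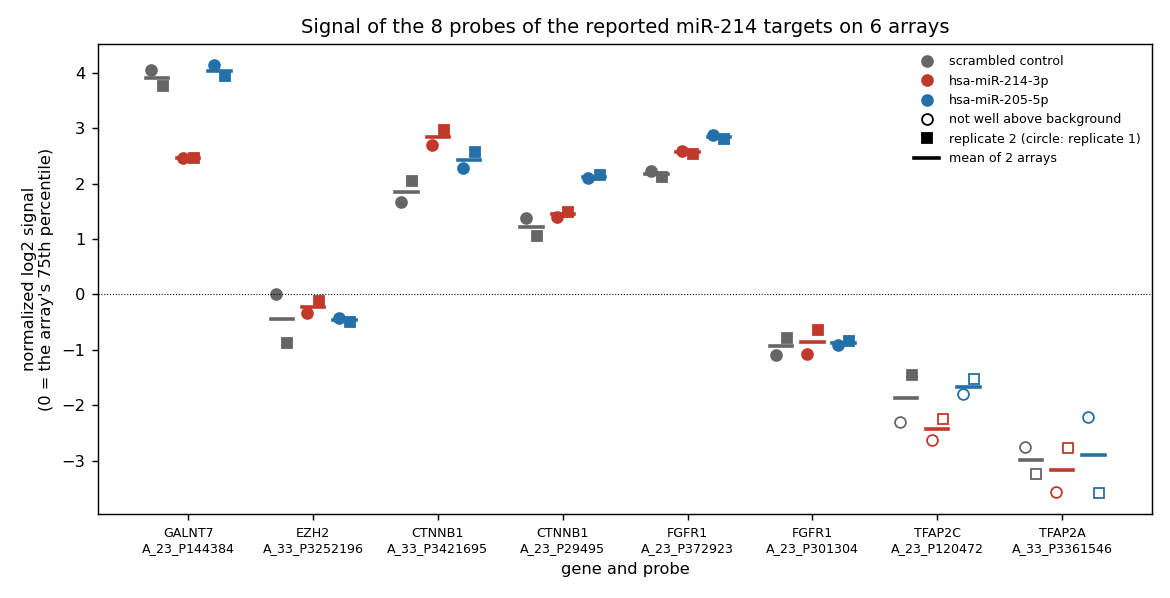
Normalized log2 signal (0 is the array's 75th percentile) of the 8 probes on 6 arrays, with circles for replicate 1, squares for replicate 2, lines for the mean of 2 arrays and open symbols where the probe was not well above background. Both hsa-miR-214-3p arrays lie well below the other 4 for GALNT7, and TFAP2A is open on every array.

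GALNT7 encodes a glycosyltransferase of the Golgi that adds N-acetylgalactosamine to proteins at the start of mucin-type O-glycosylation, preferring peptides that already carry such a sugar. Its 1 probe, A_23_P144384 for transcript NM_017423, had processed signals of 832 and 782 on the scrambled control arrays. They were 268 and 201 with hsa-miR-214-3p, and 731 and 538 with hsa-miR-205-5p. Normalized, the log2 signal was 4.05 and 3.75 in the control, 2.47 and 2.45 with hsa-miR-214-3p, and 4.13 and 3.94 with hsa-miR-205-5p. The 2 hsa-miR-214-3p arrays were thus nearly alike and lay at least 1.28 below either control array, while the hsa-miR-205-5p arrays overlapped the control.

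In the control the mean was 3.90 ± 0.21 and with the precursor it was 2.46 ± 0.01 (SD, n = 2), a log2 fold change of -1.44 with a standard error of 0.18 (limma adjusted p = 0.0339). The level in the control was 2.71 times that with hsa-miR-214-3p, with a 95% confidence interval from 1.98 to 3.71. Ordered by log2 fold change from the lowest, GALNT7 stood at place 201 of 11974 genes. Against hsa-miR-205-5p the difference was -1.57 with a standard error of 0.18 (adjusted p = 0.0052). hsa-miR-205-5p itself differed from the control by 0.13, with a 95% confidence interval from -0.32 to 0.59 (adjusted p = 0.617). Fewer copies of an mRNA per cell and a change in the mix of cells cannot be told apart in such bulk RNA.

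GALNT7 lay below the control with hsa-miR-214-3p under all 21 alternatives, with log2 fold changes between -1.60 and -1.29, but the call did not hold in all of them. Alternatives that changed only the test, the block, the limits, the filter or arrays outside the comparison could not move this value. Leaving out either hsa-miR-205-5p array gave this comparison the same fit as only the 4 arrays compared. The adjusted p was 0.0557 without scrambled control replicate 1, 0.082 without either hsa-miR-205-5p array, 0.231 and 0.285 without hsa-miR-214-3p replicates 1 and 2, 0.082 on only the 4 arrays compared, 0.169 without the filter, 0.0805 with the replicate number as a block and 0.237 for the methods' t-test after adjustment. In these 9 settings 0 probes of the whole array were called in this comparison, in either direction. The difference between the precursors kept its call in all but 2 alternatives, with an adjusted p of 0.0516 without hsa-miR-214-3p replicate 1 and 0.0581 without replicate 2.

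**Figure D2:**
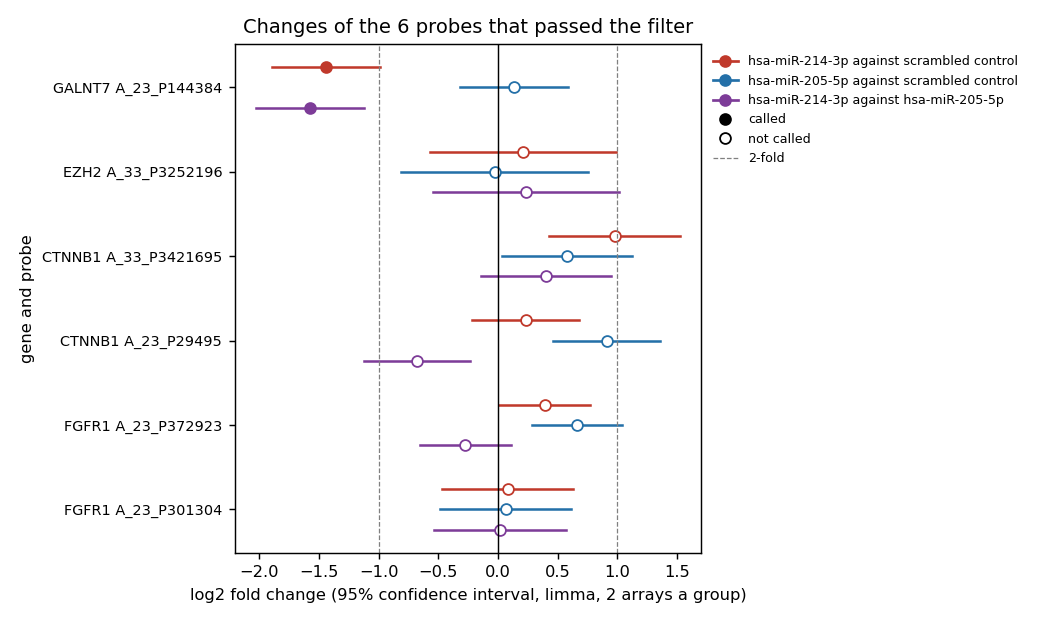
Log2 fold change with its 95% confidence interval (limma, 2 arrays per group) for the 6 tested probes in the 3 comparisons, filled where called, with dashed lines at 2-fold. The interval of GALNT7 for hsa-miR-214-3p against the control, from -1.89 to -0.99, is the one in the control comparisons that lies wholly below 0.

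Other members of the GALNT family can start O-glycans on overlapping sets of proteins. Of 9 tested family members besides GALNT7, 0 were called with hsa-miR-214-3p by limma, 3 had an unadjusted p under 0.05, as did 24.2% of all tested genes, and the methods' t-test without adjustment called 1 lower. Counts of genes in this and the other lists go by the brightest tested probe of a gene. Their median log2 fold change was 0.03, with values from -1.03 to 0.60. GALNT18 lay lowest, at 1.63 ± 0.09 against 2.65 ± 0.28 in the control (SD, n = 2), a log2 fold change of -1.03 (adjusted p = 0.0605). It differed between the precursors by -1.98 (adjusted p = 0.00415), with 3.61 ± 0.09 under hsa-miR-205-5p. GALNT11 was called with hsa-miR-205-5p, where both arrays were below the limit for its probe and it lay at least 2.74-fold lower than in the control (adjusted p = 0.00799). In that comparison 7.98% of all tested genes were lower.

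The sugar that GALNT enzymes place is extended by the O-glycan core enzymes, of which 5 were tested. B3GNT3, which lengthens core structures, fell with hsa-miR-214-3p by 2.05 on the log2 scale (adjusted p = 0.037) and rose with hsa-miR-205-5p by 2.52 (adjusted p = 0.00898). Its mean log2 signal was 3.92 ± 0.39 in the control, against 1.86 ± 0.16 and 6.44 ± 0.36 with hsa-miR-214-3p and hsa-miR-205-5p (SD, n = 2). C1GALT1, the enzyme that adds the next galactose, rose with hsa-miR-205-5p by 1.30 (adjusted p = 0.00924) and differed from the control by 0.87 after hsa-miR-214-3p (adjusted p = 0.052). The list as a whole had 1 lower and 0 higher genes with hsa-miR-214-3p, where 2.03% and 1.09% of all tested genes were called, and 0 lower and 2 higher with hsa-miR-205-5p, where 7.98% and 4.78% were.

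EZH2 is the catalytic subunit of Polycomb repressive complex 2, which methylates histone H3 and keeps genes silent. Its probe A_33_P3252196 for NM_004456 was dim but well above background on all 6 arrays. The normalized log2 signal was 0.01 and -0.88 on the control arrays, -0.34 and -0.12 with hsa-miR-214-3p, and -0.43 and -0.49 with hsa-miR-205-5p. The control arrays were the farthest apart and enclosed the other 4. The log2 fold change with hsa-miR-214-3p was 0.21 with a standard error of 0.31 and a 95% confidence interval from -0.57 to 0.99 (adjusted p = 0.735). With hsa-miR-205-5p it was -0.03 (adjusted p = 0.957). The sign rested on the control arrays, since hsa-miR-214-3p differed from the control by 0.65 without scrambled control replicate 1 and by -0.23 without replicate 2. For hsa-miR-205-5p the same 2 settings gave 0.41 and -0.47.

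Of the 10 tested partners of EZH2 in this complex, 0 were called in either comparison with the control by limma or by the methods' t-test without adjustment, and 4 had an unadjusted p under 0.05 in each, where 24.2% of all tested genes did with hsa-miR-214-3p and 39.5% with hsa-miR-205-5p. Their log2 fold changes with hsa-miR-214-3p ran from -0.76 to 0.53, with a median of -0.12. The lowest was that of SUZ12, a core subunit, at 2.92 ± 0.05 against 3.68 ± 0.13 in the control (SD, n = 2, adjusted p = 0.0798). With hsa-miR-205-5p the largest difference was that of RBBP4, a histone-binding subunit, at -0.95 on its brightest probe (adjusted p = 0.0289), short of 2-fold, with its other probes at -0.61 and -0.56 (adjusted p = 0.226 and 0.207).

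CTNNB1 encodes beta-catenin, which links cadherins to the cytoskeleton at cell junctions and carries the Wnt signal to the nucleus. It has 2 probes, and they ranked the groups differently. Probe A_33_P3421695 for NM_001098210 had log2 signals of 1.67 and 2.04 on the control arrays, 2.70 and 2.96 with hsa-miR-214-3p, and 2.29 and 2.57 with hsa-miR-205-5p. Both hsa-miR-214-3p arrays lay above the other 4. The log2 fold change was 0.98 with a standard error of 0.22 for hsa-miR-214-3p (adjusted p = 0.0817) and 0.58 for hsa-miR-205-5p (adjusted p = 0.121). Without scrambled control replicate 2 the first was 1.17 and called higher (adjusted p = 0.0424).

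Probe A_23_P29495 for NM_001904 is printed as 10 spots on every array. Its log2 signal was 1.37 and 1.05 in the control, 1.39 and 1.49 with hsa-miR-214-3p, and 2.10 and 2.15 with hsa-miR-205-5p. Here the hsa-miR-205-5p arrays were the high ones, and hsa-miR-214-3p differed from the control by 0.23, with a 95% confidence interval from -0.21 to 0.68 (adjusted p = 0.489). hsa-miR-205-5p lay 0.91 above the control with a standard error of 0.18 (adjusted p = 0.026), short of 2-fold. That value was 1.51 in the authors' table of log2 values (adjusted p = 0.013), where it was called, as it was without scrambled control replicate 1 (1.07, adjusted p = 0.0124). How that table combined the 10 spots is not given in the sources used here. The precursors differed by -0.68 on this probe (adjusted p = 0.0383) and by 0.40 on the other (adjusted p = 0.204). Within an array the spots of this probe varied with a standard deviation of 0.07 to 0.30 on the log2 scale. One spot of scrambled control replicate 1, at 73.1 where the other 9 lay between 109 and 149, was marked as an outlier and left out. Neither probe of CTNNB1 lay below the control with either precursor.

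**Figure D3:**
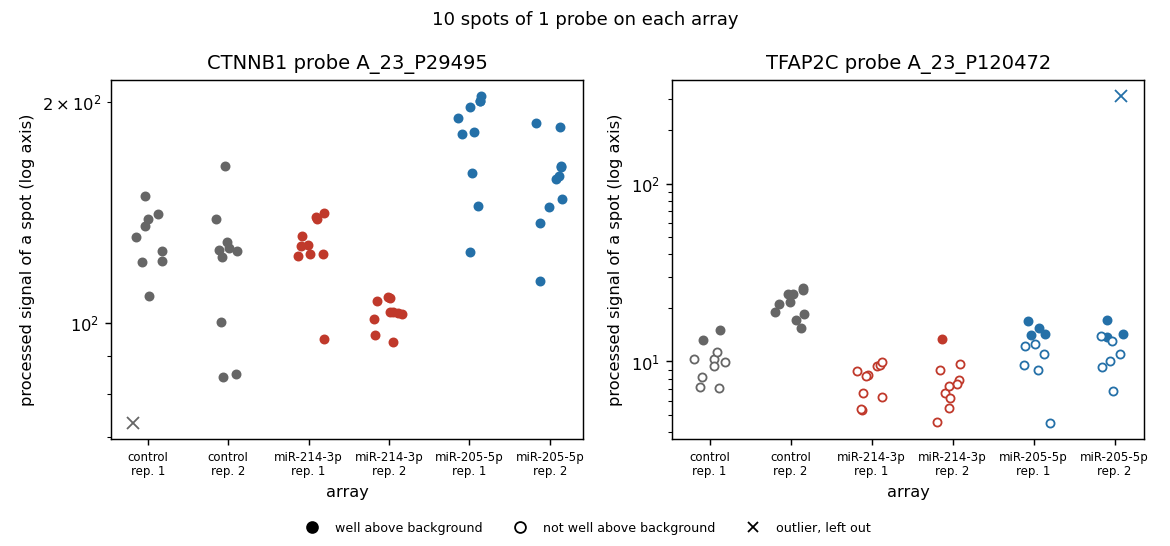
Processed signal (log axis) of the 10 spots of the CTNNB1 probe A_23_P29495 and of the TFAP2C probe A_23_P120472 on each array, filled where well above background and crossed where left out as an outlier. For CTNNB1 the highest spots are those of the 2 hsa-miR-205-5p arrays, up to 204, and for TFAP2C the spots of scrambled control replicate 2 are all filled.

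Genes that act with beta-catenin were grouped by role. Of 8 tested genes of the complex that destroys beta-catenin, 0 were called with hsa-miR-214-3p by limma or by the methods' t-test without adjustment, and 2 had an unadjusted p under 0.05, where 24.2% of all tested genes did. AXIN2, its scaffold and a gene that Wnt signals induce, differed from the control by 0.92 on its brighter probe (adjusted p = 0.148). Its second probe, above background on 1 of the 2 control arrays, differed by 2.03 (adjusted p = 0.0432), which is past both limits but not in the count, since that goes by the brightest probe. With hsa-miR-205-5p the scaffold protein gene AMER1 was called, with a probe not above background in the control and at least 2.03-fold higher with the precursor (adjusted p = 0.0421). The AMER1 probe passed the filter through the hsa-miR-205-5p arrays alone, and its call was lost in 15 of 20 alternatives. In that comparison 4.78% of all tested genes were higher.

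Of 8 tested adhesion partners, 1 was lower with hsa-miR-214-3p, where 2.03% of all tested genes were. It was CTNNBIP1, whose protein is an inhibitor that keeps beta-catenin from its DNA-binding partners rather than a junction protein. Its brighter probe fell by 1.50 (adjusted p = 0.037), from 6.63 ± 0.31 to 5.13 ± 0.01 (SD, n = 2), and its second probe differed from the control by -0.16. With hsa-miR-205-5p 3 were higher, where 4.78% of all tested genes were. All 3 are classical cadherins that bind beta-catenin at the membrane. CDH1 rose by 1.96 (adjusted p = 0.00799), CDH3 by 1.81 (adjusted p = 0.008) and CDH2 by 1.59 (adjusted p = 0.0169). With normexp background correction all 3 calls were lost, with CDH1 at 0.77, CDH3 at 0.51 and CDH2 at 0.53, short of 2-fold. CDH1 is also 1 of the luminal and epithelial markers, of which 3 of 7 tested were higher with hsa-miR-205-5p and 0 of 7 with hsa-miR-214-3p, where 4.78% and 1.09% of all tested genes were.

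Of 7 tested transcription partners, 1 was lower with hsa-miR-214-3p, where 2.03% of all tested genes were. It was LEF1, which brings beta-catenin to DNA and fell by 1.09 (adjusted p = 0.0373), from 2.18 ± 0.06 to 1.10 ± 0.10 (SD, n = 2). TCF7, a factor of the same list, differed the other way, by 1.28, and was not called (adjusted p = 0.0939). Of the 7 log2 fold changes, 3 lay below 0 and 4 above. TLE3, a corepressor of the same factors, was lower with hsa-miR-205-5p by a log2 fold change of -1.50 (adjusted p = 0.0121), with 1 of the 2 precursor arrays above background. There, 7.98% of all tested genes were lower. Of 7 tested genes that beta-catenin is known to induce, 0 were called with either precursor by limma or by the methods' t-test without adjustment, with 1 at an unadjusted p under 0.05 for hsa-miR-214-3p and 3 for hsa-miR-205-5p, where 24.2% and 39.5% of all tested genes passed that limit. AXIN2, which Wnt signals also induce, is counted with the destruction complex and not among these 7. With hsa-miR-214-3p its 2 probes differed from the control by 0.92 and 2.03 (adjusted p = 0.148 and 0.0432). Among the 7, the largest differences were 0.48 for DKK1, a secreted Wnt inhibitor, with hsa-miR-214-3p (adjusted p = 0.146) and -0.67 for CCND1, cyclin D1, with hsa-miR-205-5p (adjusted p = 0.0502).

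FGFR1 encodes a receptor tyrosine kinase for fibroblast growth factors, and it too has 2 probes. Probe A_23_P372923 for NM_001174066 had log2 signals of 2.23 and 2.12 in the control, 2.59 and 2.54 with hsa-miR-214-3p, and 2.87 and 2.81 with hsa-miR-205-5p. The 3 groups did not overlap and were in that order. The log2 fold change was 0.39 with a 95% confidence interval from 0.01 to 0.77 for hsa-miR-214-3p (adjusted p = 0.213), and 0.66 with an interval from 0.28 to 1.04 for hsa-miR-205-5p (adjusted p = 0.0379), short of 2-fold. The precursors differed by -0.27 (adjusted p = 0.211).

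The second probe, A_23_P301304 for NM_023110, was dimmer, with -1.09 and -0.78 in the control, -1.08 and -0.63 with hsa-miR-214-3p, and -0.91 and -0.83 with hsa-miR-205-5p. The 3 groups overlapped. The log2 fold change was 0.08 with an interval from -0.47 to 0.63 for hsa-miR-214-3p (adjusted p = 0.858) and 0.06 for hsa-miR-205-5p (adjusted p = 0.853), and the sign of both turned when arrays were scaled to their median. The 2 probes list different transcripts of FGFR1, and which part of each transcript a probe reads was not looked up here.

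In the pathway of this receptor, FGFR3, a second receptor of the family, rose with hsa-miR-214-3p by 1.56 (adjusted p = 0.0381), from 0.07 ± 0.36 to 1.63 ± 0.03 (SD, n = 2). With hsa-miR-205-5p it was FGFRL1, a receptor without a kinase domain, that was lower, by a log2 fold change of -1.78 (adjusted p = 0.00881). Among 5 tested ligands and their binding proteins, FGF5 rose with hsa-miR-214-3p by 1.33 (adjusted p = 0.0419), and its 2 tested probes differed from the control by 1.16 and 1.33. FGF13, which acts inside the cell and not through the receptors, was above background on 0 arrays of hsa-miR-214-3p and lay at least 1.50-fold lower than in the control (adjusted p = 0.0251). Its probe passed the filter through the control arrays alone, and it counts as called by its fitted value, while the bound is short of 2-fold. FGFBP1, a secreted carrier of FGF ligands, rose with hsa-miR-205-5p by 1.14 (adjusted p = 0.0119). Over all tested genes, 2.03% were lower and 1.09% higher with hsa-miR-214-3p, and 7.98% were lower and 4.78% higher with hsa-miR-205-5p.

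Of 13 tested adaptors and response genes of FGF receptors, 0 were called with hsa-miR-214-3p by limma or by the methods' t-test without adjustment, and 5 had an unadjusted p under 0.05, where 24.2% of all tested genes did. SPRED1, an inhibitor of Ras signalling, had the largest difference among those above background on all 4 arrays, at -0.88 (adjusted p = 0.135). With hsa-miR-205-5p, 3 were lower and 1 was higher, where 7.98% and 4.78% of all tested genes were. The adaptor gene GRB2 was lower by a log2 fold change of -1.63 (adjusted p = 0.00912), and the inhibitor genes SPRY4 and SPRED2 were lower too, SPRY4 by -1.74 (adjusted p = 0.0459), with its second probe at least 1.01-fold lower (adjusted p = 0.219), and SPRED2 by at least 3.55-fold (adjusted p = 0.023). FRS2, the docking protein of the receptor, rose by 1.01 (adjusted p = 0.0414). The call of FRS2 was lost in 14 of 21 alternatives and that of SPRY4 in 13, and the methods' t-test without adjustment called 1 gene of the list lower and 0 higher.

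TFAP2A and TFAP2C encode AP-2 alpha and AP-2 gamma, transcription factors that act in luminal breast cells among others, and neither passed the filter. The TFAP2A probe A_33_P3361546 for NM_001032280 was not well above background on any array, with processed signals between 2.93 and 9.05. No fold change can be given for it. The TFAP2C probe A_23_P120472 for NM_003222, printed as 10 spots, was well above background on 1 array, scrambled control replicate 2. Its mean processed signal was 21.2 there and 10.2 on the other control array, 7.83 and 7.75 with hsa-miR-214-3p, and 11.9 and 12.2 with hsa-miR-205-5p. The probe was not well above background on any precursor array, and the normalized log2 signals of the control arrays, -2.30 and -1.45, enclosed -2.24 on hsa-miR-214-3p replicate 2. No fold change is given for TFAP2C either. On hsa-miR-205-5p replicate 2, 1 spot of TFAP2C read 311 where the other 9 read 6.83 to 17.1, and it was left out as an outlier.

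Of 6 tested relatives and cofactors of AP-2, 0 were called with hsa-miR-214-3p by limma or by the methods' t-test without adjustment, and 3 had an unadjusted p under 0.05, where 24.2% of all tested genes did. CITED2, a coactivator that binds AP-2, differed from the control by 0.83 (adjusted p = 0.0623). With hsa-miR-205-5p CITED2 rose by 1.51 (adjusted p = 0.00873), with its second probe at 0.91 (adjusted p = 0.0387), short of 2-fold, and its relative CITED4 by 1.59 (adjusted p = 0.0105). These were 2 of the 6 tested genes, where 4.78% of all tested genes were higher.

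**Figure D4:**
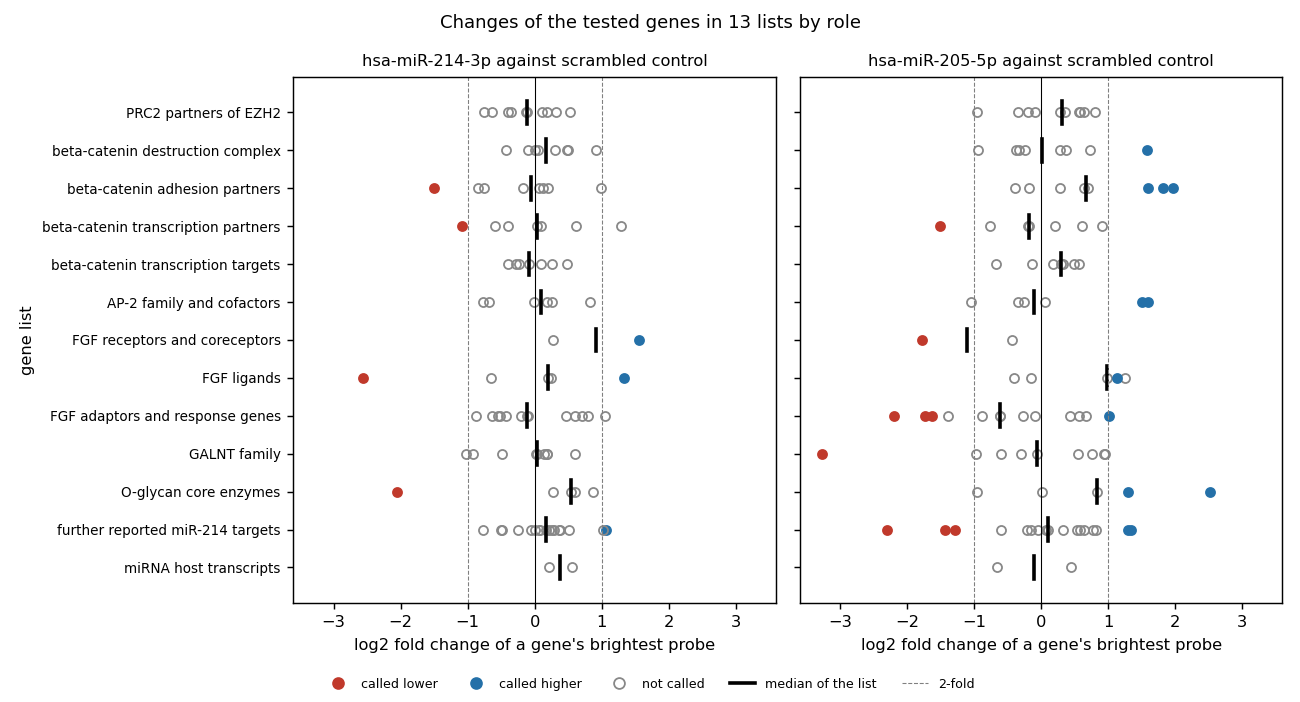
Log2 fold change of the brightest probe of each tested gene in 13 lists by role, for hsa-miR-214-3p (left) and hsa-miR-205-5p (right) against the scrambled control, with called genes filled, a bar at each list's median and dashed lines at 2-fold. On the left 4 genes are called lower and 3 higher, and on the right 9 lower and 12 higher.

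Over all 13 lists, 99 of 151 genes were tested. With hsa-miR-214-3p, 4 (4.04%) were lower and 3 (3.03%) were higher, where 2.03% of all tested genes were lower and 1.09% were higher. Of the 4, FGF13 was not above background with the precursor and has a bound short of 2-fold. With hsa-miR-205-5p, 9 (9.09%) were lower and 12 (12.1%) were higher, where the shares of all tested genes were 7.98% and 4.78%. Of the 9, GALNT11, SPRED2 and PLXNB1 were not above background with the precursor, PLXNB1 with a bound short of 2-fold, and of the 12, AMER1 was not above background in the control. Such genes passed the filter through groups in which they are high, and nothing is read from how these shares compare. The median log2 fold change over the lists was 0.09 and 0.11, respectively, against -0.01 and 0.08 over all tested genes. All 7 calls with hsa-miR-214-3p were lost in each of the 9 settings named for GALNT7, in which no probe was called. All 21 calls with hsa-miR-205-5p were lost without hsa-miR-205-5p replicate 2 and under the methods' t-test after adjustment, where again 0 probes of the array were called. Scaling to the median gave 4 lower and 0 higher with hsa-miR-214-3p and 16 lower and 6 higher with hsa-miR-205-5p, and normexp background correction gave 3 and 0, and 4 and 3. Under normexp 7 of these 21 calls held, those of CITED2, CITED4, FGFRL1, GRB2, B3GNT3, ING4 and UCP2, and 2 of the 7 calls with hsa-miR-214-3p, those of CTNNBIP1 and B3GNT3.

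A further list held 20 genes taken from general knowledge as reported miR-214 targets in other cells and not checked against the literature, of which 17 were tested. With hsa-miR-214-3p, 0 of them were lower by limma or by the methods' t-test without adjustment, and 3 had an unadjusted p under 0.05, where 24.2% of all tested genes did. QKI, an RNA-binding protein of splicing, was higher by 1.07 (adjusted p = 0.0405), from 1.60 ± 0.13 to 2.67 ± 0.02 (SD, n = 2). It was higher with hsa-miR-205-5p as well, by 1.33 (adjusted p = 0.0094), and the precursors differed by -0.27 (adjusted p = 0.237). The call with hsa-miR-214-3p was lost also without scrambled control replicate 2. With hsa-miR-205-5p, 3 of the 17 were lower and 2 were higher, where 7.98% and 4.78% of all tested genes were. PLXNB1, a semaphorin receptor, lay at least 1.76-fold lower (adjusted p = 0.00799), a bound short of 2-fold for a probe not above background with the precursor. ING4, a chromatin reader, was lower by a log2 fold change of -1.44 (adjusted p = 0.0155), and SUFU, an inhibitor of Hedgehog signalling, rose by 1.29 (adjusted p = 0.0131). The median of the list was 0.16 with hsa-miR-214-3p and 0.11 with hsa-miR-205-5p.

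miR-214 is cut from DNM3OS, a transcript antisense to DNM3. DNM3OS was well above background on 5 of the 6 arrays and DNM3 on 4. With hsa-miR-214-3p, DNM3OS differed from the control by 0.21 (adjusted p = 0.796), with a standard error of 0.41. Of these 2 transcripts, DNM3OS and DNM3, 0 were called with either precursor by limma or by the methods' t-test, and 0 had an unadjusted p under 0.05.

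Across the 6 arrays, the genes most like each member were taken from 10218 other genes above background on all arrays, by Pearson's r of the normalized log2 signal. The arrays fall into 3 groups of 2, so a high r says little more than that the group means lie in the same order and proportion. For GALNT7 they were CTDSP1 (r = 0.9996) and ASB2 (r = 0.9995), with log2 fold changes of -2.09 and -1.79 with hsa-miR-214-3p, and 394 genes had an r over 0.95. For FGFR1 they were TIMM29 (r = 0.998) and NECTIN2 (r = 0.997), among 268 such genes. For CTNNB1, by its probe A_33_P3421695, they were GTF2H1 (r = 0.989) and YBX3 (r = 0.986), among 31. For EZH2 they were NUBP2 (r = 0.999) and CTSA (r = 0.983), among 15.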

How the data were processed

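RNA was hybridized to 6 one-colour Agilent arrays, 2 for each of the groups. The authors deposited the Feature Extraction 11.0 output of each array, per the labels, whose processed signal is a linear intensity after background subtraction, with no scaling across arrays. A value table of 50739 probes, on a log2 scale, was deposited as well. Its sorted columns are identical, with a median of 3.49, and each correlated with log2 processed signal at 0.997 or more.

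Control and outlier spots (245 to 463 outliers per array) were left out, spots of a probe averaged, log2 taken and each array's 75th percentile (35.1 to 58.0) subtracted. limma 3.58.1 (R 4.3.3) was fitted on all 6 arrays, with 3 residual and 2.47 prior degrees of freedom, and adjusted over 18464 probes. The script was tested on simulated data. Symbols came from RefSeq (GRCh38.p14), used for names only, for 30275 probes. For a gene with several probes, the brightest tested one stood for it. "At least N-fold" divides the mean of the brighter group by, on each dim array, the lowest signal well above background or the signal of the probe, whichever was higher. Plots used matplotlib 3.10.9 and pandas 2.3.3. Precision is limited by the number of arrays.

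The 6 genes, the lists by role and the tests were chosen with earlier results of these data known. Genes named from a list are those called (at most the 4 largest), otherwise the largest difference among genes above background on all 4 arrays, and 2 genes per member for likeness. The alternatives were normexp (offset 50, median signal), quantile or median scaling, the percentile over probes above background everywhere, the value table of the authors, no filter or a stricter one, only 4 arrays, the replicate block, trended spread, the methods' t-test, no adjustment, no fold limit, the mean of a gene's probes, leaving out each array and, chosen after seeing the data, keeping outlier spots. Fits that left out 1 array assumed the lone array to vary like the other groups.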

Additional observations from a re-analysis of the deposited data

How the results depend on the processing

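The number of tested probes of the 6 genes called lower with hsa-miR-214-3p against the control was 0 without the filter, on only the 4 arrays compared, with the replicate block and under the methods' t-test after adjustment, and between 0 and 1 when each array was left out. The number called higher there was also between 0 and 1 when each array was left out. With hsa-miR-205-5p against the control, 2 were called higher without a fold limit, 1 in the authors' table, and between 0 and 1 when each array was left out. Between the precursors, 2 were lower without a fold limit and between 0 and 1 when each array was left out. For the genes of the 13 lists with hsa-miR-214-3p, 0 were lower or higher without the filter, on 4 arrays, with the replicate block and under the methods' t-test after adjustment, 0 were higher with normexp or median scaling, and 5 were higher at unadjusted p. When each array was left out, 0 to 5 were lower and 0 to 7 higher. With hsa-miR-205-5p, 4 were lower and 4 higher without the filter, 4 and 3 with normexp, 16 and 6 with median scaling and 0 and 0 under the methods' t-test after adjustment. There, 23 were higher without a fold limit, 5 were lower on 4 arrays and 5 with the stricter filter, and 0 to 14 were lower and 0 to 14 higher when each array was left out. Median scaling moved the median over all probes by -0.17 for hsa-miR-214-3p and -0.39 for hsa-miR-205-5p.

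Sign changes occurred only in values that were not called, and the cause was not tested. With hsa-miR-205-5p against the control, GALNT7 was -0.13 under normexp, -0.26 under median scaling and -0.013 to 0.28 when each array was left out. EZH2 there was 0.0069 under normexp and -0.47 to 0.41 when each array was left out, and with hsa-miR-214-3p it was -0.23 to 0.65. The FGFR1 probe A_23_P301304 was -0.33 under median scaling and -0.090 to 0.22 when each array was left out with hsa-miR-205-5p, -0.084 and -0.14 to 0.30 with hsa-miR-214-3p, and between the precursors -0.056 under normexp and -0.20 to 0.24 when each array was left out. DNM3OS with hsa-miR-214-3p was -0.12 to 0.54 when each array was left out.

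The replicate block was fitted because the groups share replicate numbers, but the differences between replicates 1 and 2 did not go together (correlations of 0.01, -0.05 and 0.11 between the groups over 18464 probes). With the block, GALNT7 against the control had an adjusted p of 0.0805, and 0 probes in all were called in that comparison.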
